A study of Danio rerio with 2 samples.

Results

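Genes that build or repress cell-cell adhesion in the early embryo were followed across cell types: the classical cadherins cdh1 and cdh2, the protocadherins pcdh8 and pcdh18b, the catenins ctnna1 and ctnnb1, the epithelial adhesion molecule epcam, and the snail-family repressors snai1a, snai1b and snai2. They were chosen by gene symbol, and all 10 were found among the 27597 genes listed. The data are droplet single-cell RNA-seq of whole zebrafish embryos at shield stage, the onset of gastrulation, with 1 library of MZwnt11/slb embryos and 1 of wildtype embryos. MZwnt11/slb embryos lack maternal and zygotic function of wnt11f2, a non-canonical Wnt ligand of the silberblick locus (allele tx226), and the wild-type strain named by the study is A2B2. Embryos of both genotypes were dissociated and fixed in a single step with acetic acid and methanol. Neither the labels nor the methods say how many embryos were pooled.

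Classical cadherins bind each other between neighbouring cells, and through beta- and alpha-catenin they hold the junction to the actin cortex. During vertebrate gastrulation, cells that leave the epithelial state commonly lower E-cadherin (cdh1) and raise N-cadherin (cdh2), and transcription factors of the snail family repress the E-cadherin gene in mammalian cells. In zebrafish, E-cadherin is present throughout the blastoderm and is needed for epiboly and for the migration of the meso-endoderm.

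With 1 library per genotype there was no replicate error, so no p-value is given. Intervals in brackets are 95% intervals of counting error only, and genotype, clutch, dissociation and library cannot be told apart. The MZwnt11/slb library held 7911 cells with a median of 4595 transcript counts (unique molecular identifiers, UMIs) per cell, and the wildtype library held 8862 cells with a median of 3873.5, and the libraries shared 16 cell barcodes. Levels are a gene's UMIs summed over cells and scaled to the UMI total of those cells (counts per 1e6, CPM). The targeted gene, wnt11f2, had 41.4 CPM in MZwnt11/slb cells and 99.3 CPM in wildtype cells, which checks nothing of the mutation itself, since a mutated transcript can still be counted at its 3′ end.

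Cells were grouped into 17 clusters without use of the 10 genes or wnt11f2, and clusters were named from marker lists of other genes. Meso-endoderm-like clusters held 2335 MZwnt11/slb cells and 2373 wildtype cells, ectoderm-like clusters 3466 and 4286, clusters like the enveloping layer (the outer epithelium of the embryo) 775 and 826, and the cluster like the yolk syncytial layer 76 and 142. Clusters left unnamed held 1234 MZwnt11/slb cells and 1210 wildtype cells. The libraries did not mix evenly. Of the enveloping layer-like clusters, cluster 11 held 588 MZwnt11/slb cells and no wildtype cell, cluster 8 held 695 wildtype cells and no MZwnt11/slb cell, and cluster 13 held 187 and 131 cells with high UMI counts (median 8832 in MZwnt11/slb cells). Among ectoderm-like clusters, cluster 6 held 1075 MZwnt11/slb cells and 180 wildtype cells, and cluster 0 held 484 and 1871. Meso-endoderm-like clusters were also uneven, with 258 MZwnt11/slb cells and 153 wildtype cells in cluster 12, and 817 and 1018 in cluster 1. Ratios between libraries for the enveloping layer-like, ectoderm-like and meso-endoderm-like classes therefore rest on different mixes of clusters.

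The E-cadherin gene cdh1 was present in every class and highest in the enveloping layer-like cells. Its level there was 1219 CPM (1189 to 1250) in the MZwnt11/slb library and 1403 CPM (1369 to 1438) in the wildtype library, against 234 and 265 CPM in the ectoderm-like cells of the same libraries. Meso-endoderm-like cells had 249 CPM in the MZwnt11/slb library and 240 CPM in the wildtype library, within 1.5-fold of the ectoderm-like level in both libraries. Across 14 clusters per library of at least 50 cells, cdh1 had between 177 and 1513 CPM in MZwnt11/slb cells and between 169 and 1545 CPM in wildtype cells, and the highest value was that of an enveloping layer-like cluster in both. After each cell was thinned to 2944 UMIs, a cdh1 UMI was seen in 94.1% of MZwnt11/slb and 97.2% of wildtype enveloping layer-like cells, and in 49.3% and 49.3% of meso-endoderm-like cells. Before thinning these shares were 99.1% and 98.3%, and 66.9% and 60.9%.

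The N-cadherin gene cdh2 had the other distribution. Meso-endoderm-like cells had 140 CPM (133 to 146) in the MZwnt11/slb library and 131 CPM (124 to 138) in the wildtype library, against 49.1 and 36.0 CPM in ectoderm-like cells, a log2 ratio of meso-endoderm over ectoderm of 1.51 (1.38 to 1.63) in MZwnt11/slb and 1.86 (1.72 to 2.01) in wildtype. Within the meso-endoderm it was uneven. Cluster 12, led by the prechordal plate markers, had 289 CPM in MZwnt11/slb and 371 CPM in wildtype. Cluster 4, led by paraxial mesoderm markers, had 210 and 232 CPM, and cluster 1, led by markers of the ventrolateral margin, had 76.7 and 57.5 CPM. These descriptions give the leading list only. Clusters 12 and 4 each also passed notochord and endoderm markers, such as tbxta and sox32. The highest cdh2 level was in the yolk syncytial layer-like cells, with 369 CPM (307 to 439) from 126 UMIs in MZwnt11/slb and 547 CPM (484 to 617) from 266 UMIs in wildtype. Enveloping layer-like cells had 23.3 and 15.5 CPM, and without cluster 13 they had 10.8 and 10.1 CPM.

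As a share of the UMIs of both classical cadherins, cdh2 made up 35.9% (34.6% to 37.3%) in MZwnt11/slb meso-endoderm-like cells and 35.3% (33.8% to 36.8%) in wildtype ones. In ectoderm-like cells it made up 17.3% and 11.96%, and in enveloping layer-like cells 1.88% and 1.10%. These shares compare 2 genes whose 3′ ends may be captured unequally, so only their differences between cells are read. By cluster the share ran from 0.710% in cluster 11 to 61.5% in cluster 14 in MZwnt11/slb, and from 0.651% in cluster 8 to 76.4% in cluster 14 in wildtype. In cluster 12 the share was 56.3% (52.3% to 60.2%) in MZwnt11/slb and 64.5% (58.8% to 69.9%) in wildtype, and in cluster 4 it was 46.2% (43.8% to 48.6%) and 52.6% (50.02% to 55.2%). In cluster 1 the order of the libraries was the other way, with 22.6% in MZwnt11/slb and 18.1% in wildtype, and the lower bound of 20.4% in MZwnt11/slb lay above the upper bound of 20.2% in wildtype. Clusters 14, 12 and 4, with the highest cdh2 shares, thus had a lower share in the MZwnt11/slb library, although in cluster 12 the intervals overlapped. Clusters 0 and 6 were also lower, with overlapping intervals. Clusters 2, 3, 5, 7, 9, 10 and 13 went the way of cluster 1. Their intervals were apart in cluster 5 (14.0% in MZwnt11/slb and 8.61% in wildtype) and cluster 9 (23.8% and 18.3%).

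**Figure D1:**
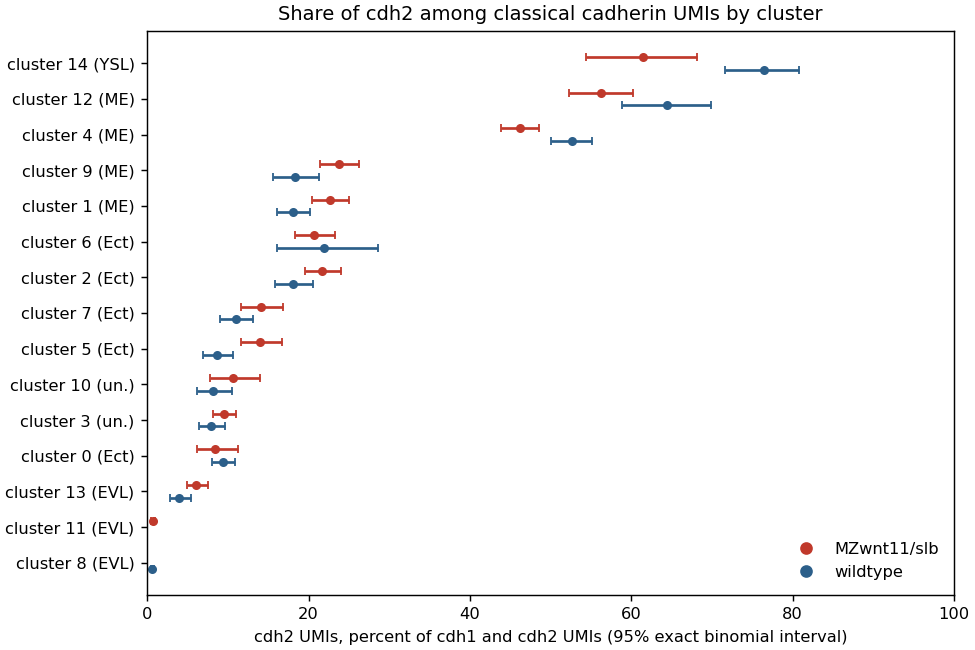
Share of cdh2 among the UMIs of cdh1 and cdh2 (x axis, percent, with 95% exact binomial intervals) in each cluster (y axis) for the MZwnt11/slb (red) and wildtype (blue) libraries. ME is meso-endoderm-like, Ect ectoderm-like, EVL enveloping layer-like, YSL yolk syncytial layer-like and un. unnamed. Clusters 14, 12 and 4 stand above all others in both libraries, and clusters 11 and 8 lie under 1%.

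The catenin genes were the most even of the set over cell types. ctnnb1, which codes for beta-catenin, the junction protein and Wnt effector, had 849 to 1108 CPM over the clusters of the MZwnt11/slb library and 675 to 971 CPM over those of the wildtype library. ctnna1, which codes for alpha-catenin, the link from the cadherin complex to actin, had 146 to 258 CPM in MZwnt11/slb clusters and 261 to 339 CPM in wildtype clusters. Ratios of meso-endoderm over ectoderm were near 0 on the log2 scale for both genes, at −0.13 in MZwnt11/slb and −0.10 in wildtype for ctnnb1, and −0.09 and −0.06 for ctnna1.

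epcam, which codes for an epithelial transmembrane adhesion protein, was the most biased to the enveloping layer. Its level there was 3805 CPM (3752 to 3859) in MZwnt11/slb and 7093 CPM (7017 to 7170) in wildtype, against 361 and 873 CPM in ectoderm-like cells. The log2 ratio of enveloping layer over ectoderm was 3.40 in MZwnt11/slb and 3.02 in wildtype. Meso-endoderm-like cells had 372 and 727 CPM. All clusters described had epcam UMIs, at no less than 290 CPM in MZwnt11/slb and 601 CPM in wildtype.

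The protocadherins were highest in different classes. pcdh8, the paraxial protocadherin, which acts in convergence movements of the mesoderm, had 265 CPM in MZwnt11/slb meso-endoderm-like cells and 265 CPM in wildtype ones, against 5.93 and 9.03 CPM in ectoderm-like cells. It reached 513 CPM (490 to 536) in MZwnt11/slb and 560 CPM (535 to 586) in wildtype in cluster 4, and 461 CPM (423 to 501) and 599 CPM (535 to 669) in cluster 12. In cluster 1 it had 112 CPM in MZwnt11/slb and 95.03 CPM in wildtype. After thinning, 43.3% of MZwnt11/slb and 39.6% of wildtype meso-endoderm-like cells had a pcdh8 UMI (53.9% and 47.1% before), against 1.58% and 2.17% of ectoderm-like cells (2.16% and 2.82% before), at median depths of 4732 and 3977 UMIs in meso-endoderm-like cells and 4294 and 3561 in ectoderm-like cells. pcdh18b, a non-clustered protocadherin, was lower in meso-endoderm-like cells (34.9 CPM in MZwnt11/slb, 7.72 in wildtype) than in ectoderm-like cells (108 and 17.4 CPM), and in cluster 4 it had 3.69 and 1.19 CPM. In cluster 9, also meso-endoderm-like, pcdh18b had 72.1 and 16.4 CPM, the wildtype value near that of ectoderm-like cells, and pcdh8 had 121 and 87.2 CPM. Cluster 8 of the wildtype library had 0 pcdh18b UMIs, which allows up to 1.01 CPM, and cluster 11 of the MZwnt11/slb library had 6 UMIs, or 1.85 CPM.

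The snail genes differed in the class where they were highest, with overlap in some clusters. snai1a had 512 CPM (500 to 525) in MZwnt11/slb and 595 CPM (581 to 610) in wildtype meso-endoderm-like cells, against 91.8 and 105 CPM in ectoderm-like cells. It was highest in cluster 4, at 962 CPM in MZwnt11/slb and 1262 CPM in wildtype, and next in cluster 12, at 781 and 966 CPM. The yolk syncytial layer-like cells had 665 CPM (581 to 757) and 716 CPM (643 to 796). snai1b had 31.6 and 37.9 CPM in meso-endoderm-like cells against 58.9 and 53.6 CPM in ectoderm-like cells, and 13.2 and 16.7 CPM in cluster 4. snai2 had 32.7 CPM in MZwnt11/slb and 72.4 CPM in wildtype meso-endoderm-like cells, against 73.3 and 165 CPM in ectoderm-like cells. The meso-endoderm-like clusters were uneven. In cluster 9 snai1b had 51.2 CPM in each library, and snai2 had 58.1 CPM in MZwnt11/slb and 135 CPM in wildtype. The same cluster had 306 and 292 CPM of snai1a. In cluster 1 snai1b had 36.4 and 49.7 CPM, and snai2 had 32.5 and 76.6 CPM.

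After thinning, a snai1a UMI was found in 92.1% of the MZwnt11/slb and 95.6% of the wildtype cells of cluster 4, and in 23.1% and 26.9% of ectoderm-like cells (31.6% and 31.5% before thinning). Clusters 11 and 8, the enveloping layer-like clusters that hold cells of 1 library each, had the lowest shares, 4.20% in MZwnt11/slb and 6.94% in wildtype. Cluster 13, also enveloping layer-like, had 29.3% in MZwnt11/slb and 32.0% in wildtype. The ectoderm-like shares lay above those of clusters 11 and 8 and below those of cluster 13. Free RNA was not measured, so how much of any of these shares it gives was not tested. A snai2 UMI was seen in 18.7% (17.3% to 20.2%) of MZwnt11/slb and 36.0% (34.2% to 37.7%) of wildtype ectoderm-like cells, against 0.366% and 2.16% in clusters 11 and 8. For snai1b these shares were 14.1% and 12.9% in ectoderm-like cells, against 0.183% and 0.772%. Median depths of clusters 11 and 8 were 5275 and 5051 UMIs.

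**Figure D2:**
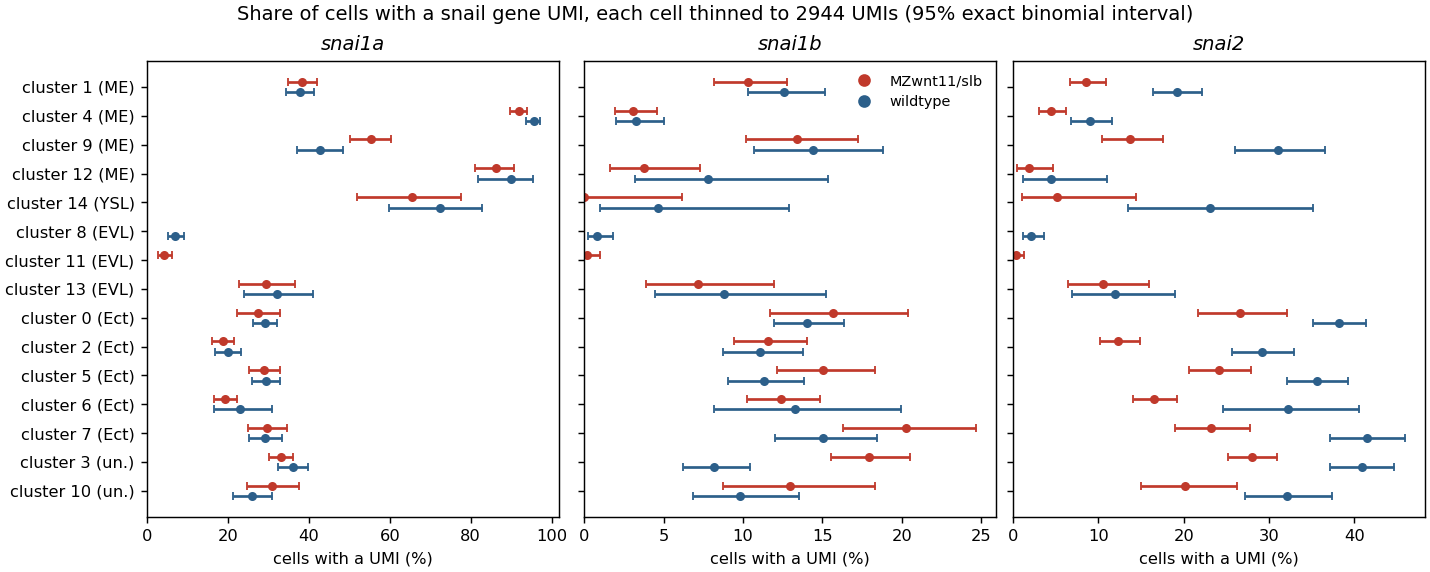
Percent of cells with at least 1 UMI of snai1a, snai1b and snai2 (x axes, 95% exact binomial intervals) by cluster (y axis), each cell thinned to 2944 UMIs, in MZwnt11/slb (red) and wildtype (blue) cells. snai1a peaks in clusters 4 and 12, where snai1b and snai2 are low. snai2 is lower in MZwnt11/slb than in wildtype in every cluster shown that holds cells of both, with overlapping intervals in clusters 12, 13 and 14.

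Against ectoderm-like cells, 5 of the 10 genes passed 1.5-fold in meso-endoderm-like cells in the same direction in both libraries, with at least 100 UMIs in the sums compared. cdh2, pcdh8 and snai1a were higher and pcdh18b and snai2 lower. Of 8102 genes with enough UMIs, 4.73% passed the same rule. The 10 genes were chosen with earlier results of these data known, so the excess over this share is not read as a test. snai1b passed in MZwnt11/slb (−0.90) but not in wildtype (−0.50), and without cluster 9 it passed in both (−1.36 and −0.66). For enveloping layer-like over ectoderm-like cells, 8 of 10 genes passed, with cdh1, epcam and pcdh8 higher and cdh2, pcdh18b, snai1a, snai1b and snai2 lower, where 49.5% of 7598 genes passed, so a large share is general to that class. Without cluster 13, where pcdh8 had 37.2 CPM in MZwnt11/slb and 32.8 CPM in wildtype, the pcdh8 call was lost, at −0.46 (−1.38 to 0.36) in MZwnt11/slb and 0.28 (−0.27 to 0.79) in wildtype, and the other 7 calls stayed.

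**Figure D3:**
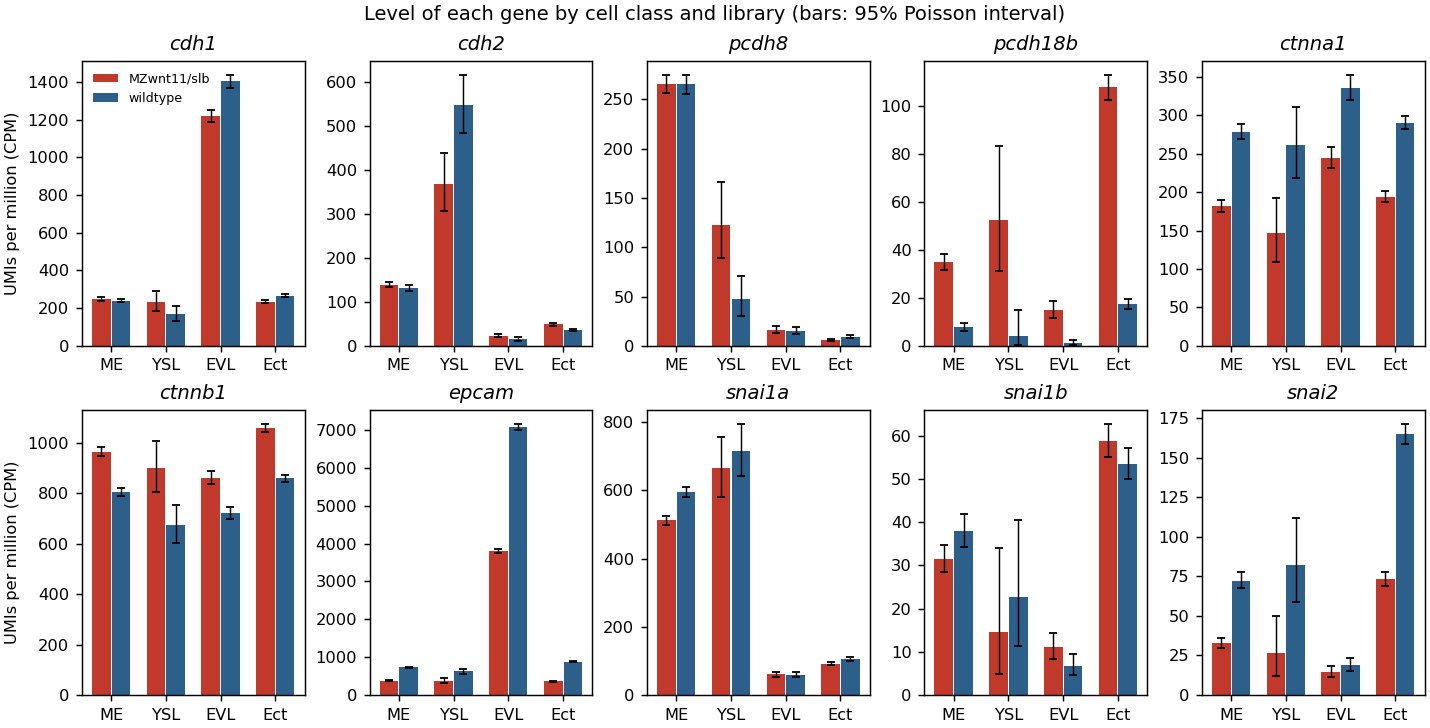
Level of each of the 10 genes (y axes, CPM, each from 0, with 95% Poisson intervals) in meso-endoderm-like (ME), yolk syncytial layer-like (YSL), enveloping layer-like (EVL) and ectoderm-like (Ect) cells of the MZwnt11/slb (red) and wildtype (blue) libraries. cdh1 and epcam peak in EVL, cdh2 in YSL, pcdh8 in ME, and snai1b and snai2 in Ect, in both libraries.

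Between the libraries, pcdh18b, epcam, snai2, ctnna1 and ctnnb1 each kept 1 sign in every cluster with at least 100 UMIs. The amounts varied between clusters. How many of all genes did so was not counted, so this is not read as a trait of these genes. pcdh18b had 2749 UMIs (68.7 CPM) in the MZwnt11/slb library and 426 (11.4 CPM) in the wildtype library, a log2 ratio of 2.59 (2.44 to 2.74), while 95% of the 11756 genes tested lay between −2.21 and 1.72. It was above 0 in all 8 clusters with at least 100 UMIs, between 2.10 and 3.42. epcam had 824 CPM in MZwnt11/slb and 1609 CPM in wildtype, a log2 ratio of −0.97 (−0.99 to −0.95), and was lower past 1.5-fold in all 13 clusters that hold cells of both libraries, between −1.49 and −0.71. snai2 had 58.0 CPM in MZwnt11/slb and 120 CPM in wildtype (−1.05, −1.12 to −0.97), lower in all 11 clusters with enough UMIs, between −1.42 and −0.70. The ctnna1 ratio was −0.59 (−0.63 to −0.55), close to the 1.5-fold line at 0.58, and below 0 in all 13 clusters. The ctnnb1 ratio was 0.26 (0.24 to 0.29) and above 0 in all 13, between 0.19 and 0.42. How much of these shifts belongs to genotype, clutch or library cannot be told apart with 1 library each.

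The other 5 genes had smaller ratios over all cells, and their cluster ratios lay on both sides of 0. Over all cells the log2 ratio was −0.11 for cdh1, 0.19 for cdh2, 0.15 for pcdh8, −0.10 for snai1a and 0.17 for snai1b. In meso-endoderm-like cells the cdh2 ratio was 0.09 (−0.01 to 0.19). The meso-endoderm-like clusters went both ways, so the class ratio mixes them. Levels of cdh2 and pcdh8 were lower in MZwnt11/slb in clusters 4 and 12 and higher in clusters 1 and 9, with some intervals overlapping. Over the ectoderm-like class cdh2 had 49.1 CPM in MZwnt11/slb and 36.0 CPM in wildtype (0.45, 0.29 to 0.61), but its clusters differed. The ratio was 0.71 (lower bound 0.27) in cluster 5, while clusters 2 (0.23), 7 (0.32), 0 (−0.04) and 6 (−0.19) had intervals that span 0. Cluster 0, with 26.1 CPM of cdh2 in MZwnt11/slb and 26.9 CPM in wildtype, held 484 MZwnt11/slb cells and 1871 wildtype cells, and the part of this difference in the class ratio was not tested. In yolk syncytial layer-like cells the cdh2 ratio was −0.57 (−0.89 to −0.26). The summed yolk syncytial layer markers of those cells were also lower, at 4049 CPM in MZwnt11/slb and 8420 CPM in wildtype (6 of 7 with UMIs in each). The other cell type lists went both ways. Paraxial and lateral mesoderm markers were higher, at 2067 CPM (8 of 10 with UMIs) and 1389 CPM (9 of 10), as were endoderm, ventrolateral margin and neural markers. Prechordal plate markers were lower, at 928 CPM in MZwnt11/slb and 1397 CPM in wildtype. Enveloping layer, notochord, non-neural ectoderm and primordial germ cell markers were lower too. The part of these differences in the cdh2 ratio was not tested. snai1a was lower in MZwnt11/slb in cluster 4 (−0.39) and over the meso-endoderm-like class (−0.22). It was also lower in cluster 12, at 781 CPM (732 to 833) in MZwnt11/slb and 966 CPM (884 to 1054) in wildtype. In enveloping layer-like cells without cluster 13 it was lower past 1.5-fold, at 14.5 CPM in MZwnt11/slb and 31.2 CPM in wildtype. Its cluster ratios ranged up to 0.14. pcdh8 in meso-endoderm-like cells had a ratio of 0.00 (−0.07 to 0.07), and its ratio past 1.5-fold in ectoderm-like cells (−0.61, upper bound −0.22) rested on 92 UMIs in MZwnt11/slb and 147 in wildtype. Of those, 58 and 69 were in cluster 2, where the ratio was −0.58, and the other ectoderm-like clusters had at most 39 each per library. snai1b was higher past 1.5-fold in the unnamed cluster 3, with 74.4 CPM in MZwnt11/slb and 32.4 CPM in wildtype.

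**Figure D4:**
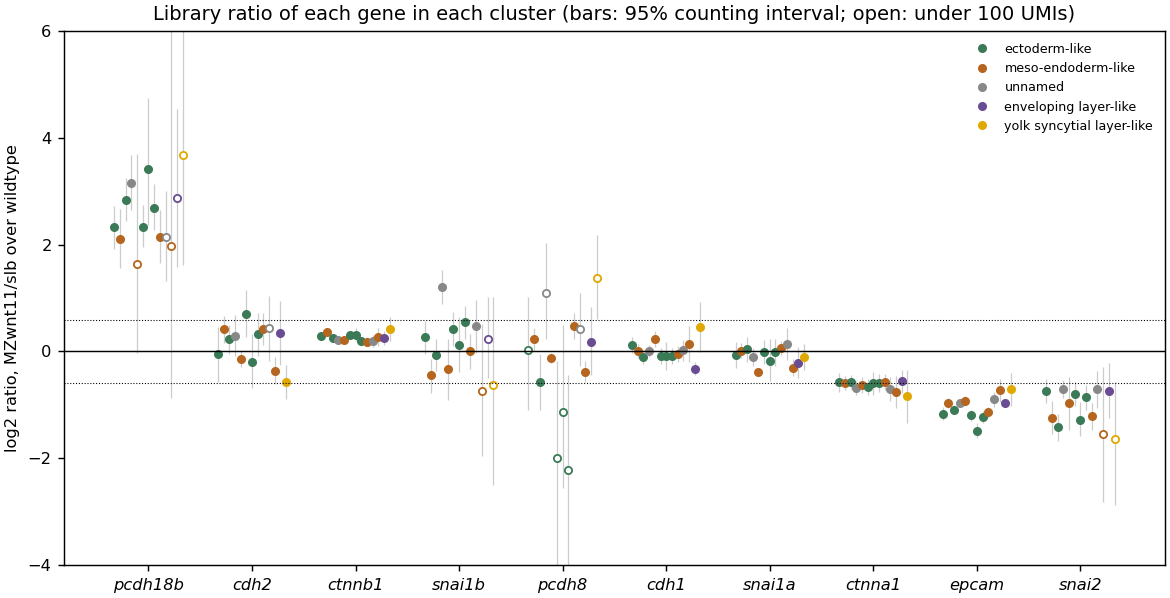
log2 ratio of MZwnt11/slb over wildtype (y axis) for each gene (x axis, ordered by median), 1 point per cluster, with 95% counting intervals, some cut at the axis ends. Open points have under 100 UMIs, and dotted lines mark 1.5-fold. pcdh18b lies above 0 and ctnna1, epcam and snai2 below 0 in every cluster shown, whereas pcdh8 and snai1b lie on both sides.

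Counted over genes, 4 of the 10 passed 1.5-fold between the libraries over all cells (pcdh18b higher in MZwnt11/slb, and ctnna1, epcam and snai2 lower), where 33.3% of all genes tested did. In meso-endoderm-like cells the same 4 passed, against 28.5% of genes. There ctnna1 (−0.62) fell short of 1.5-fold in 4 of 14 alternative settings, with the smallest ratio −0.51 under median-of-ratios scaling, and epcam (−0.97) fell short in 1, at −0.52 without the cells above the 95th percentile of UMIs. In ectoderm-like cells 4 passed, against 30.9%, with pcdh8 in place of ctnna1. There pcdh8 fell short in 9 of 13 settings, down to −0.15 without the cells above the 95th percentile of UMIs and −0.19 with another clustering seed, and ctnna1, at −0.58, missed the line narrowly and passed it in 8 of 13. In enveloping layer-like cells 1 of the 8 with at least 100 UMIs passed, epcam, against 29.1%. Over all cells and in meso-endoderm-like and ectoderm-like cells these shares lie near the background. In enveloping layer-like cells the share was below the background, but that count changed with the settings. The median log2 ratio of the 10 genes was 0.03 over all cells, beside −0.09 over all genes tested.

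Cells of the meso-endoderm were also compared by whether they held a UMI of snai1a, after thinning. With a snai1a UMI, cdh2 had 177 CPM in MZwnt11/slb cells and 193 CPM in wildtype cells, and without it 87.4 and 58.8 CPM, a log2 ratio of 1.02 (0.78 to 1.26) in MZwnt11/slb and 1.71 (1.43 to 2.01) in wildtype. cdh1 differed little, at −0.09 (−0.24 to 0.07) and −0.27 (−0.43 to −0.10). epcam was lower with snai1a over the class, at −0.32 and −0.24, but its intervals within single clusters all spanned 0. There the epcam ratio was −0.10 in MZwnt11/slb and −0.004 in wildtype in cluster 1, and 0.13 and −0.15 in cluster 9. In cluster 4 of the MZwnt11/slb library it was 0.14. Within single clusters the cdh2 ratio varied. In cluster 4 of the MZwnt11/slb library it was −0.13 (−0.61 to 0.40), and in cluster 1 it was 0.36 (−0.15 to 0.87) in MZwnt11/slb and 0.47 (−0.08 to 1.02) in wildtype, intervals that all span 0. In cluster 9, whose cells have high UMI counts, it was 1.51 (0.76 to 2.33) and 1.53 (0.74 to 2.38). With a pcdh8 UMI the cdh2 ratio over the class was 0.68 in MZwnt11/slb and 1.05 in wildtype. In cluster 1 it was 0.52 (−0.07 to 1.08) in MZwnt11/slb and 0.89 (0.27 to 1.49) in wildtype. In cluster 9 it was 1.06 (0.37 to 1.72) and 0.76 (−0.14 to 1.59), and in cluster 4 −0.09 (−0.39 to 0.22) and −0.29 (−0.59 to 0.01). In cluster 12 of the MZwnt11/slb library it was −0.65 (−1.07 to −0.22). Comparisons with under 50 cells on either side were not made, which left out cluster 12 of the wildtype library. Intervals clear of 0 thus lay on both sides of 0 in the MZwnt11/slb library. Whether the wildtype library would do the same could not be read. With a snai1b UMI the ratio over the class was −0.59 and −0.57, but −0.11 in MZwnt11/slb and 0.05 in wildtype in cluster 1 and 0.07 in cluster 9 of the MZwnt11/slb library, intervals that all span 0.

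**Figure D5:**
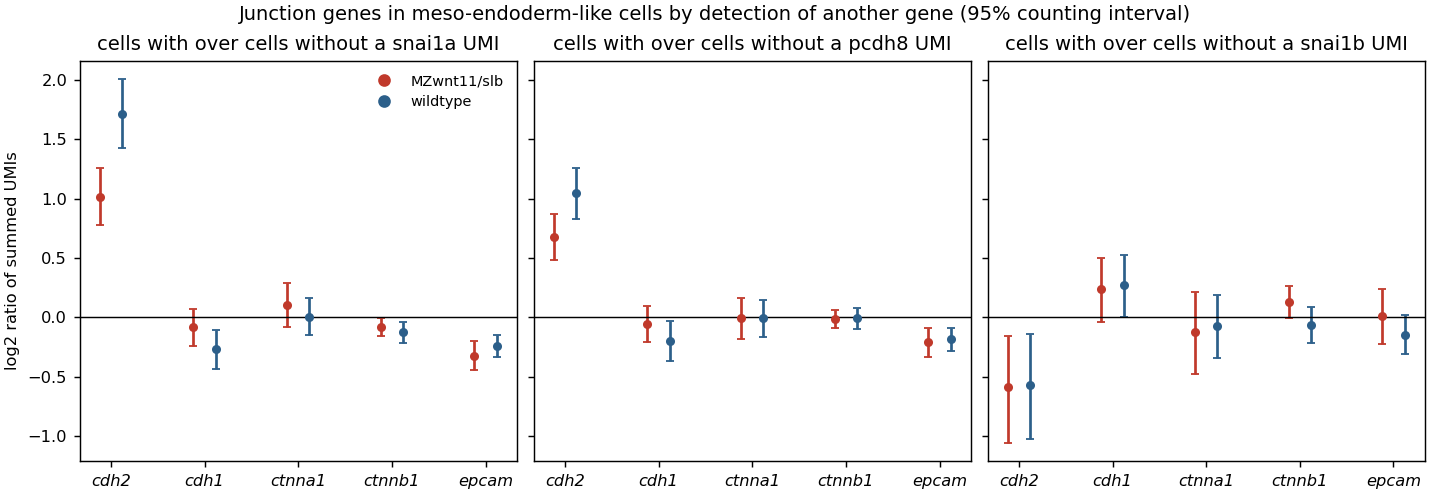
log2 ratio of summed UMIs in meso-endoderm-like cells with over cells without a UMI of snai1a, pcdh8 or snai1b (3 panels), for 5 junction genes (x axes), with 95% counting intervals, after thinning, in MZwnt11/slb (red) and wildtype (blue). Over the whole class, cdh2 lies above 0 for snai1a and pcdh8 and below 0 for snai1b in both libraries.

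Over the 28 points formed by 14 clusters in each library, the snai1a level followed those of cdh2 (Pearson r = 0.89) and pcdh8 (r = 0.86), and epcam followed cdh1 (r = 0.88). These points share their library's depth, and are described without a test. Among 6077 genes with at least 1000 UMIs, the genes most like pcdh8 were osr1 (r = 0.98), mixl1 and nkd1, the most like cdh1 were cgnl1 (r = 0.97), plekha8 and vsig10, and the most like snai1a were sp5a (r = 0.91), flrt3 and gata5. osr1, sp5a and gata5 were among the markers that named the clusters.

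Other genes of the adhesion complexes were looked at from lists of 37 genes, 36 of which were found. In meso-endoderm-like over ectoderm-like cells, none of the 6 catenins and linkers with enough UMIs passed 1.5-fold in MZwnt11/slb or in wildtype. Only 4.73% of 8102 genes passed it the same way in both libraries, so this is not read as a trait of the catenins. Between libraries over all cells, 2 of 7 catenins and linkers were higher past 1.5-fold and 1 lower, a share near the 33.3% of all genes. jupa, the plakoglobin gene, had 204 CPM in MZwnt11/slb and 111 CPM in wildtype (log2 0.88), and afdna, an afadin gene, 60.9 and 39.8 CPM (0.61), while ctnna2 had 4.95 and 10.4 CPM (−1.07). ctnnb2, the other zebrafish beta-catenin gene, had 431 CPM in MZwnt11/slb and 391.6 CPM in wildtype (0.14), and ctnnd1, p120-catenin, 495 and 430 CPM (0.20). cdh6 was higher in meso-endoderm than in ectoderm in both libraries, at 10.3 CPM against 0.968 CPM in MZwnt11/slb and 9.42 CPM against 1.35 CPM in wildtype. Its level in yolk syncytial layer-like cells was far above both, at 296 CPM in MZwnt11/slb and 817 CPM in wildtype. pcdh18a, the sister gene of pcdh18b, had the opposite pattern to it, with 18.8 CPM in MZwnt11/slb and 9.42 CPM in wildtype meso-endoderm-like cells against 1.10 and 0.860 CPM in ectoderm-like cells. pcdh1b and pcdh19 were lower past 1.5-fold in meso-endoderm-like than in ectoderm-like cells in both libraries. Between libraries over all cells, pcdh10b and pcdh18a were higher past 1.5-fold in MZwnt11/slb, and cdh6, cdh11, pcdh19, fat1a and zeb2b lower. These lists held 2 cadherins, 5 protocadherins and giant cadherins, and 3 snail, twist and zeb genes with enough UMIs. Of all genes tested, 33.3% passed. The lists were chosen with earlier results of these data known, so the excess is not read as a test. For cdh6 the yolk syncytial layer-like cells were also lower past 1.5-fold, with 101 UMIs in MZwnt11/slb and 397 in wildtype. In meso-endoderm-like cells cdh6 did not pass 1.5-fold between the libraries, so its ratio over all cells does not describe that class.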

How the data were processed

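Reads had been aligned by the authors with Cell Ranger (6.1.1 in the submitters' processing notes, with a later version in the study's methods) to GRCz11, and the deposited matrices held whole-number UMI counts per gene and cell from a 3′ kit. All deposited barcodes were kept and no doublets were removed. Counts were scaled to each cell's total, log-transformed (log10 of the scaled value plus 1), reduced to 30 principal components without the 10 genes and wnt11f2, corrected for depth and library, and clustered (20 neighbours, Leiden, resolution 1) with scanpy 1.11.5 and leidenalg 0.10.2. Clusters were named from at least 3 markers at 1.5-fold or more, and clusters under 50 cells in both libraries are not described. The members and lists were chosen with earlier results of these data known. UMIs were summed per library and class, with exact Poisson, conditional and Clopper-Pearson intervals (scipy 1.17.1). Only the conditional intervals were tested on simulated data. Those counts were drawn from the Poisson model that the intervals assume, so spread between cells or embryos was not covered. The text names all 10 genes, wnt11f2, some of the listed adhesion genes with at least 100 UMIs, and for some genes the 3 most correlated over clusters on log2(CPM + 10). Genes cannot be compared by level, since 3′ capture differs. In a RefSeq annotation of another build, 6 of 10 overlapped another gene model, and reads of overlapping genes may be shared. Thinning left out 1055 MZwnt11/slb cells and 2215 wildtype cells.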

Additional observations from a re-analysis of the deposited data

Results flagged for a closer look

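cdh1 was higher in meso-endoderm-like than in ectoderm-like cells in the MZwnt11/slb library (log2 ratio 0.089, 0.02 to 0.16) and lower in the wildtype library (−0.14, −0.21 to −0.07), so the counting intervals lay on opposite sides of 0. The difference between the libraries was not tested, and both ratios were small. Ectoderm-like cells of the libraries came from different clusters in unequal numbers.

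snai1b was lower in MZwnt11/slb than in wildtype in meso-endoderm-like cells (−0.27, −0.47 to −0.06) and higher in ectoderm-like cells (0.14, 0.00 to 0.27), the second interval just clearing 0. This difference between classes was not tested either.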

How the results depend on the processing

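The member counts past 1.5-fold were recomputed under other cluster resolutions and seeds, with the genes kept in the clustering, without centring by library, with cell filters, other scalings and a lower UMI minimum, plus leaving out cluster 13 or cluster 9, 2 settings chosen after seeing the data. Over 15 settings, 524 of 526 ratios past 1.5-fold kept their sign and 504 stayed past it. The 2 that reversed were pcdh8 in enveloping layer-like over ectoderm-like MZwnt11/slb cells, at −1.42 without the cells above the 95th percentile of UMIs and −0.46 without cluster 13. The count of genes past 1.5-fold between the libraries in enveloping layer-like cells, 1, became 2 without cells above the 95th percentile, 2 with median-of-ratios scaling, 2 without cluster 13, 3 as a mean over cells and 3 with at least 10 UMIs. The causes were not tested. The other counts stayed within 1.5 times, though their members could change, as for pcdh8, ctnna1 and epcam. Median-of-ratios scaling shifted every ratio between libraries by 0.08 in enveloping layer-like cells to 0.13 in ectoderm-like cells, and ctnna1 over all cells then fell short of 1.5-fold, at −0.49. No paired analysis was possible because there was 1 library per genotype. Without a replicate, the spread between embryos is unknown for every ratio. Genes under 100 UMIs in a class got no call. One was pcdh18b in enveloping layer-like cells, with 75 UMIs in MZwnt11/slb, 69 of them in cluster 13, and 5 in wildtype.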
